A study of Mus musculus with 157 samples.

Results

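The 45 genes described here encode the core machinery of DNA replication, from the origin recognition complex to the enzymes that make deoxynucleotides. The rule takes them by gene symbol from a list, which was drawn up with earlier results of these data known, and all 45 were among the 19600 genes counted. They fell into 9 groups by role and took 0.446% of all counts. B cells from the spleens of C57BL/6Babr mice had 48 h of lipopolysaccharide (LPS) at 10 µg/ml, a bacterial mitogen that drives resting B cells into division. The LPS group had no further treatment. The LPS+ET group was then exposed for 4 h to etoposide at 20 µM, a topoisomerase II poison that causes double-strand breaks. The LPS+ET+KU group had 47 h of LPS and 1 h of the ATM kinase inhibitor KU55933 at 10 µM ahead of the same etoposide treatment, and there was no group with the inhibitor alone. Every group received cycloheximide at 100 µg/ml for 3 min before lysis, which holds ribosomes on mRNA, and cytoplasmic extracts were separated on sucrose gradients. Each treatment had 4 gradients of 13 fractions, and 3′ end sequencing of each fraction counted the mRNAs that sedimented with single ribosomes (fractions 4 to 7, the monosomes), with short chains of ribosomes (8 to 10, light polysomes) or with long ones (11 to 16, heavy polysomes). The column names carry a library tag, LUL15 to LUL18, and each tag holds 1 gradient of each treatment, so a gradient is named here by its treatment and tag.

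Replication starts where the origin recognition complex sits on DNA. Cdc6 and Cdt1 help it to load the ring-shaped MCM2-7 helicase in G1 phase, and the Cdc7-Dbf4 kinase together with Cdc45, the GINS complex and Mcm10 turns that ring into a moving helicase at the start of S phase. Polymerase alpha with primase then starts each strand, the clamp loader RFC places the PCNA clamp, polymerases delta and epsilon extend, RPA covers single-stranded DNA, and Fen1 and Lig1 join Okazaki fragments. Many of these genes are known targets of the E2F transcription factors, which are released from Rb proteins as a cell enters S phase, and dividing B cells depend on this program.

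Promoter sequences from RefSeq (build GRCm38.p6, 250 bases before to 50 bases after each annotated start) were at hand for 38 of the 45 genes. A gene counted as a match if any of its promoters held the word. An E2F word, taken as TTTCCCGC, TTTCGCGC, TTTGCCGC or TTTGGCGC on either strand, lay in 15 of the 38 (39.5%) and in 2.61% of all 27025 genes with a promoter. The CCAAT box, CCAAT on either strand, was in 23 of the 38 (60.5%) and in 41.1% of all these genes. The word TTTGAA, the core of the cell cycle homology region of G2 and M phase genes, was in 7 (18.4%) against 20.2%, and Dbf4 was among those 7. A match in these letters is a description of the window and not a measured site. Stretches of 60 bases around the first E2F word are shown for Cdc6 and Pola1, which had the most counts of their roles and in which it lay in no annotated exon. They are 5′ to 3′ along the gene, with the E2F word or its reverse complement in capitals.

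Cdc6, chr11:98907987-98908046, plus strand, in an intron of a longer annotated transcript: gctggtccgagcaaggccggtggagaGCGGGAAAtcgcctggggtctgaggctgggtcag
Pola1, chrX:93632260-93632319, minus strand, outside annotated genes: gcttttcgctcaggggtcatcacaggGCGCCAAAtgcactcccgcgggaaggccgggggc

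The gradients held 6404957 to 21449781 counts. One stood apart, LPS+ET of tag LUL16, which had the fewest counts and 30.4% of them in heavy polysomes, against 60.5% to 68.2% in the other LPS+ET gradients. Several results below are also given without it. Monosomes held 13.7% to 17.6% of counts in LPS and 28.4% to 34.03% in LPS+ET+KU. The authors put the same RNA concentration of each fraction into the libraries, so a level is a share of the mRNA counted, in CPM (counts scaled to a library total of 1000000), and the total of a library does not measure how much mRNA its fraction held. The B cell label held in the markers: the 9 B cell markers summed to 6782 to 11292 CPM in every gradient. The 5 T cell markers present summed to 82.8 to 374 CPM, nearly all of it Lck, with Cd3e at no more than 0.435 CPM. The 8 myeloid markers summed to 33.1 to 170 CPM, the 4 plasma cell markers to 96.8 to 963 CPM, the 2 NK cell markers to at most 0.337 CPM and the 3 erythroid markers to at most 1.40 CPM. Their part in the results was not tested. In these bulk extracts, fewer cells in S phase and less mRNA per cell cannot be told apart.

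The replication mRNAs differed widely in level, and all 9 groups were represented in ribosome-associated mRNA. Each 3′ end count stands for 1 mRNA end, so these levels do not scale with transcript length. Mean CPM over the 4 LPS gradients ran from 64.5 to 924 in the MCM2-7 group and from 0.680 to 44.0 in the origin recognition complex. Orc1, the largest subunit of that complex, had 2 to 24 counts per gradient and Cdt1 had 6 to 53, so little can be read from either. The main counted site of Cdt1 lay in an intron, 1304 bases from the nearest annotated transcript end, and that of 35 members lay in an untranslated region. Gins2, a GINS subunit, varied more between tags than between treatments. It was at 85.5, 77.3, 13.4 and 28.4 CPM in LPS and at 91.3, 48.6, 11.7 and 35.2 CPM in LPS+ET (tags LUL15 to LUL18 in order, as in all lists of 4 values here).

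The first comparison asked whether the mRNA of the replication machinery on ribosomes changed within 4 h of DNA damage. Over fractions 4 to 16, 1 of the 45 members changed between LPS+ET and LPS: Dbf4, the regulatory subunit of the Cdc7 kinase that fires origins, fell. Calls are at a Benjamini-Hochberg adjusted p below 0.01 in edgeR's quasi-likelihood test over all genes tested. The background was 12.7% of 12755 genes called. The members' median log2 fold change was -0.04, beside 0.03 for all genes tested, and 21 members lay above 0 and 24 below. At an unadjusted p under 0.05 there were 9 of the 45 members, beside 34.4% of all genes. The plot of fold changes by role shows these values for every member.

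**Figure D1:**
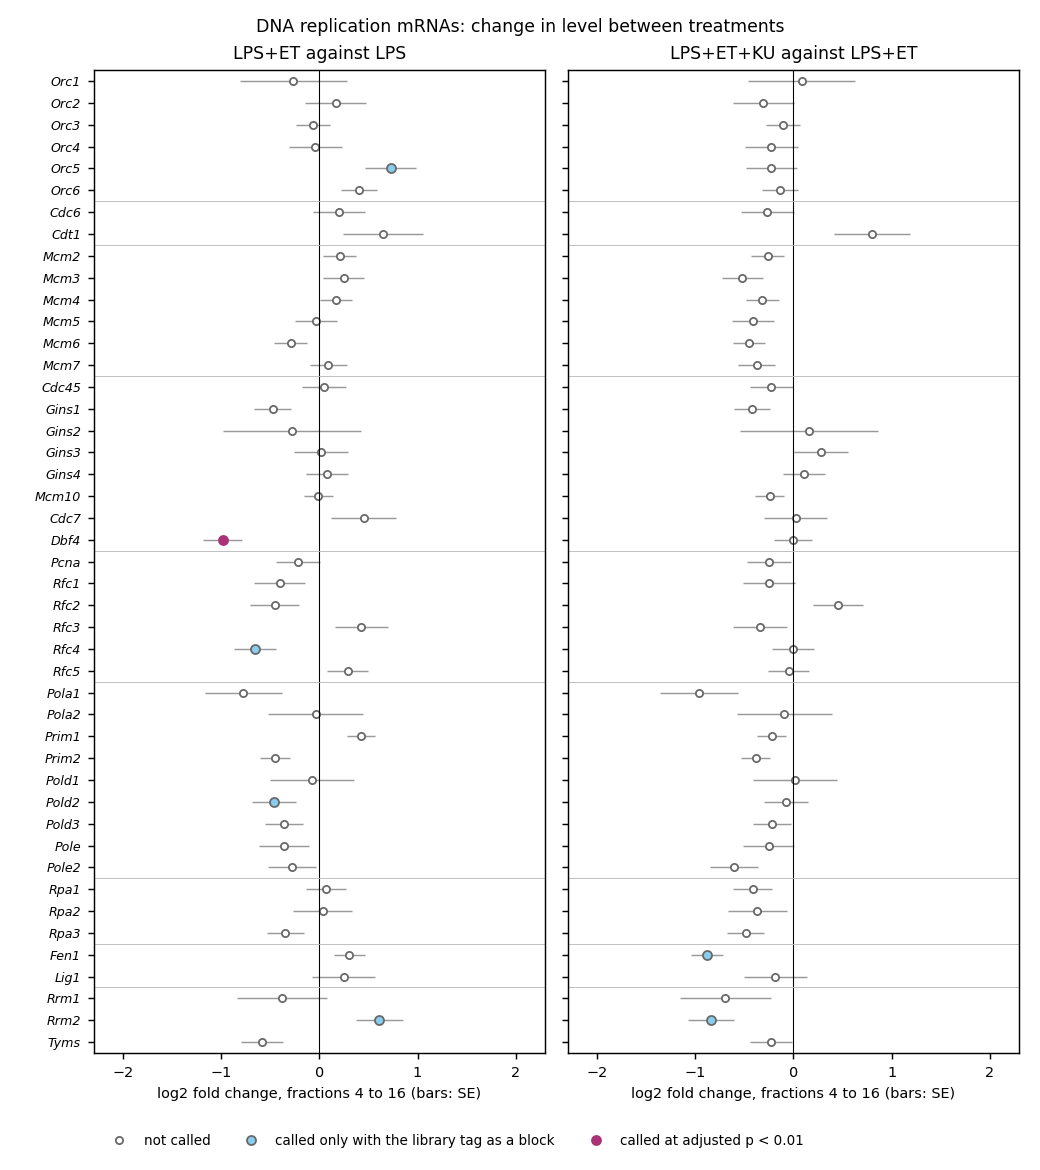
Log2 fold changes of the 45 replication mRNAs over fractions 4 to 16 (x axis, with the SE as bars), for LPS+ET against LPS (left) and LPS+ET+KU against LPS+ET (right). Genes are on the y axis in order of role. Dbf4 at -0.99 is the filled call at left, and at right 37 of 45 members lie below 0 with none called without the block.

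Dbf4 (chr5:8396973-8422716 on GRCm38, main counted site in its 3′ UTR) was at 107, 77.3, 59.9 and 81.4 CPM in LPS and at 55.9, 40.3, 35.2 and 46.6 CPM in LPS+ET. Every LPS gradient was above every LPS+ET gradient. Its log2 fold change was -0.99 with SE 0.20, and the edgeR adjusted p was 0.00256. The value with the tag as a block was -0.97 (adjusted p 2.3e-05, edgeR). Leaving out the LPS gradient of tag LUL15 moved the adjusted p to 0.0103 (edgeR), just past the threshold, as did equal weight for each fraction (-0.85, limma adjusted p 0.0111). In LPS+ET+KU it stayed at 54.9, 46.9, 33.8 and 43.0 CPM. Cdc7, the catalytic partner of Dbf4, was not called and had a log2 fold change of 0.45 with SE 0.33.

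The LUL tags pair the gradients, and a fit with the tag as a block called 5 members, beside 26.7% of all genes. Besides Dbf4, it called Rfc4 and Pold2 lower and Rrm2 and Orc5 higher. Rrm2, the small subunit of ribonucleotide reductase that is made in S phase, was at 268, 261, 198 and 158 CPM in LPS and at 503, 329, 342 and 302 CPM in LPS+ET. All 4 LPS+ET gradients lay above all 4 LPS gradients. Its log2 fold change was 0.61 with SE 0.24, and the edgeR adjusted p went from 0.0804 to 0.00326 with the block. Orc5, an ATP-binding subunit of the origin recognition complex, was at 19.2, 20.1, 18.4 and 23.9 CPM in LPS and at 28.6, 55.0, 26.9 and 35.4 CPM in LPS+ET. Its groups did not overlap, and the value of tag LUL16 was the highest. The adjusted p of Orc5 went from 0.0608 to 0.0049 (edgeR). Rfc4, a small clamp loader subunit, was at 90.6, 103, 94.9 and 101 CPM in LPS and lower in every LPS+ET gradient, at 60, 59.0, 75.1 and 72.4 CPM. Its adjusted p went from 0.0421 to 0.0063 with the block (edgeR). Pold2, the second subunit of polymerase delta, had a log2 fold change of -0.46 with SE 0.23, and its adjusted p went from 0.168 to 0.00897 (edgeR).

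The block calls changed when the LPS+ET gradient of tag LUL16 was left out, a fit chosen after seeing the data. It called 4 members, Dbf4 lower and Rrm2, Prim1 and Rfc3 higher. The share of all genes called in this fit is not given, here or below. Its counts thus have no background and are not read as results about the members. Orc5 went from 0.67 to 0.54 on the log2 scale (edgeR adjusted p 0.0156), and Rfc4 from -0.65 to -0.51 (adjusted p 0.0142). Pold2 went from -0.45 to -0.40 (adjusted p 0.0170), so none of these 3 was called. Prim1 was at 0.54 (edgeR adjusted p 0.00241) and Rfc3 at 0.70 (adjusted p 0.00213).

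Gradients of LPS and LPS+ET did not overlap for 6 of the 45 members, beside 26.4% of all genes tested. Orc5, Prim1, Fen1 and Rrm2 were the 4 that were higher, and Dbf4 and Rfc4 the 2 that were lower. Prim1, the catalytic subunit of primase, had 36.2, 36.2, 30.4 and 32.7 CPM in LPS and 56.0, 42.8, 50.0 and 48.3 CPM in LPS+ET, and its partner Prim2 went the other way in every tag. Fen1, the flap endonuclease of Okazaki fragment processing, was at 71.2, 64.7, 69.3 and 61.9 CPM in LPS and at 106, 76.8, 96.8 and 78.3 CPM in LPS+ET, with a log2 fold change of 0.30 (SE 0.16) that did not pass the test. Within every tag, 9 members were lower in LPS+ET than in LPS (Mcm6, Dbf4, Rfc1, Rfc2, Rfc4, Prim2, Pold2, Pole2 and Tyms), and 9 were higher (Orc5, Orc6, Cdc6, Mcm4, Cdc7, Prim1, Rpa1, Fen1 and Rrm2). A lower level within every tag was seen in 19.9% of all genes, close to the share among the members. No such share is given for higher levels, so the 9 higher members are not read as a result.

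By role, the polymerase and primase group had 8 of 9 members below 0 (median log2 fold change -0.36) and the clamp and clamp loader group 4 of 6 (median -0.31). No member of either was called without the block, and with it Pold2 and Rfc4 were called lower. On plain CPM, without TMM scaling, the first count was 7 of 9, since Pola2 changed sign, and the second stayed at 4 of 6. The MCM2-7 helicase had 4 of 6 above 0 (5 on plain CPM) and a median of 0.13, with none called by edgeR or by the block. Mcm7, the helicase member with the most counts, was at 941, 889, 972 and 894 CPM in LPS and at 1328, 1155, 836 and 955 CPM in LPS+ET, and the ranges overlapped. Its log2 fold change of 0.09 (SE 0.19) was smaller than its error. Rpa2, the middle subunit of the single-strand binding protein RPA, was at 344, 346, 315 and 353 CPM in LPS and at 444, 140, 492 and 433 CPM in LPS+ET. The value of 140 came from the gradient of tag LUL16 that stood apart. Its log2 fold change of 0.03 (SE 0.30) was 0.29 without that gradient.

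Other members with the most counts of their role overlapped between LPS and LPS+ET. Lig1, the ligase that seals Okazaki fragments, was at 353, 344, 292 and 267 CPM in LPS and at 522, 521, 269 and 311 CPM in LPS+ET. Mcm10 was at 145, 122, 180 and 147 CPM and at 158, 158, 169 and 153 CPM. Rfc2, a clamp loader subunit, was at 183, 229, 185 and 209 CPM in LPS and at 136, 203, 142 and 154 CPM in LPS+ET, which was lower in each tag while the ranges overlapped. Orc2 was at 47.4, 42.2, 42.6 and 43.9 CPM and at 58.3, 24.5, 73.2 and 57.8 CPM, a wider spread with the lowest value again in tag LUL16. Cdc6 was at 22.3, 19.8, 17.0 and 20.3 CPM and at 26.8, 30.0, 18.8 and 23.2 CPM.

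**Figure D2:**
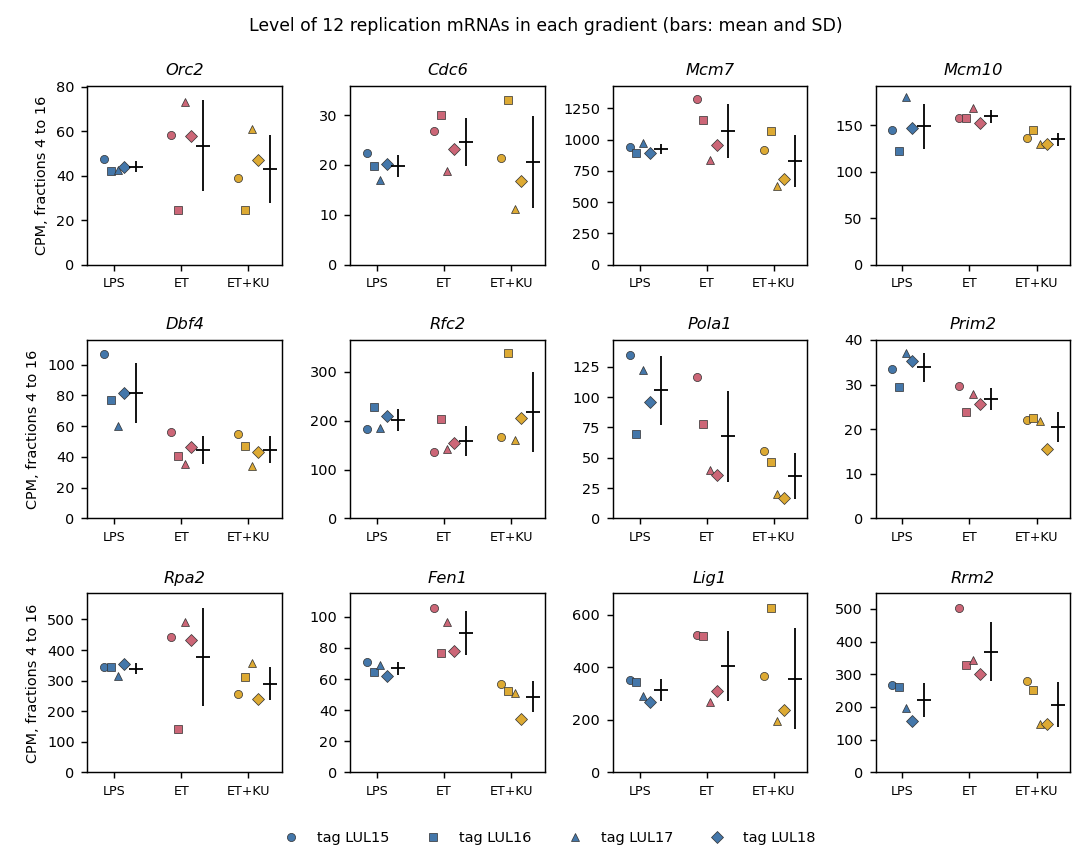
CPM over fractions 4 to 16 (y axis, each from 0) of 12 replication mRNAs in each gradient, by treatment (x axis), with a marker shape for each library tag and bars for the mean and SD of 4 gradients. Fen1 and Prim2 were added after their values were seen, and the others follow the naming rule for levels. Dbf4 is lower in both etoposide groups, and every LPS+ET point of Rrm2 and Fen1 lies above the points of the other groups.

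With the ATM inhibitor given before etoposide, 0 of the 45 members passed the test against LPS+ET (edgeR), beside 0.455% of 12755 genes. DESeq2 called 1, beside 3.24% of all genes, and 9 of the 45 were under 0.05 in edgeR's unadjusted p, beside 15.9%. Summed by counts, the members lay lower on the whole. Of the 45, 37 were below 0, with a median log2 fold change of -0.24 beside 0.04 for all genes. Lists of related genes, given further below, also leaned lower in this comparison. Heavy polysomes held 37.6% to 55.5% of counts in LPS+ET+KU. In LPS+ET they held 60.5% to 68.2%, apart from tag LUL16 with 30.4%. How much of the lower median goes with that split was not tested. All 6 MCM2-7 members were below 0, from -0.26 to -0.52, and each was lower in all 4 tags, with the same 6 below 0 on plain CPM. With the tag as a block, 2 members were called, both lower, beside 6.36% of all genes. Fen1 fell from 106, 76.8, 96.8 and 78.3 CPM in LPS+ET to 56.7, 52.5, 51.0 and 34.4 CPM, with no overlap. Its log2 fold change was -0.88 with SE 0.16, and the edgeR adjusted p of 0.0147 became 0.00080 with the block and 0.00787 without the LPS+ET gradient of tag LUL16. Rrm2 was at 281, 252, 147 and 148 CPM, again below all 4 LPS+ET gradients. The log2 fold change of Rrm2 was -0.84 with SE 0.24, and the adjusted p of 0.0831 became 0.00175 with the block (edgeR). With the LPS+ET gradient of tag LUL16 left out, the block called 7 members, all lower. No share of all genes is given for that fit, so this number is not read as a result about the members. They were Gins1, Pole2, Rfc3, Rpa2 and Rrm1 besides Fen1 and Rrm2, with log2 fold changes from -0.63 to -1.01.

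Gradients of LPS+ET+KU and LPS+ET did not overlap for 6 members, beside 8.26% of all genes. The 5 that were lower were Mcm10, Prim2, Rpa3, Fen1 and Rrm2, and Cdt1 was the 1 that was higher. Prim2 was at 29.6, 23.9, 27.9 and 25.7 CPM in LPS+ET and at 22.1, 22.6, 21.9 and 15.6 CPM with the inhibitor. Rpa3, the smallest RPA subunit, went from 14.0, 15.5, 19.6 and 22.5 CPM to 13.7, 13.1, 11.7 and 13.1 CPM. Mcm10 was at 136, 144, 130 and 129 CPM with the inhibitor, a small step below its LPS+ET range. Within every tag, 14 members were lower, namely the 6 of MCM2-7 and Mcm10, Pola1, Prim2, Rpa1, Rpa3, Fen1, Rrm1 and Rrm2, and 2 were higher, Cdt1 and Rfc2. The share of all genes lower within every tag was 19.4%, and none is given for higher levels. Pola1, the catalytic subunit of polymerase alpha, was at 134, 69.97, 122 and 95.8 CPM in LPS, 116, 77.6, 40.2 and 36.1 CPM in LPS+ET and 55.3, 46.2, 20.3 and 17.0 CPM in LPS+ET+KU. The spread between tags was wide, and the step from LPS+ET to LPS+ET+KU had a log2 fold change of -0.96 with SE 0.39 and an edgeR adjusted p of 0.241.

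Against LPS, LPS+ET+KU differed in 6 of 45 members, all lower, beside 10.7% of all genes called. This comparison shares its LPS gradients with the first and its LPS+ET+KU gradients with the second. The members' median log2 fold change was -0.25 and that of all genes was 0.09. Here too the split of counts between classes differed, and its part was not tested. The called members were Pola1 (-1.74, SE 0.40), Dbf4 (-0.99, SE 0.19), Gins1 (-0.90, SE 0.19), Prim2 (-0.84, SE 0.15), Rpa3 (-0.83, SE 0.19) and Mcm6 (-0.75, SE 0.16), with edgeR adjusted p from 0.00184 to 0.00787. Gins1, another GINS subunit, was at 67.2, 67.4, 53.1 and 61.4 CPM in LPS and at 33.99, 43.3, 33.5 and 33.7 CPM in LPS+ET+KU. Mcm6 was at 201, 178, 206 and 162 CPM in LPS and at 116, 154, 116 and 96.7 CPM. For both the groups were apart, as they were for 10 members in all (2 higher and 8 lower) beside 26.3% of all genes. The block called 16 members, 15 lower and Cdt1 higher, beside 28.1% of all genes. Leaving out 1 gradient left 1 to 8 called, with 1 without LPS LUL15, LPS LUL18, LPS+ET+KU LUL17 or LPS+ET+KU LUL18, 2 without LPS LUL16 and 3 without LPS+ET+KU LUL15. Prim2 was called in each of these fits. With equal weight for each fraction, 2 members were called, Dbf4 and Gins1 (limma).

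The same comparisons were made within each polysome class, to see where along the gradient a change sat. Dbf4 was the member called lower after etoposide in monosomes (log2 fold change -1.497, SE 0.25, edgeR adjusted p 0.00086), where 1 of 44 members tested was called beside 9.52% of all genes. With the block 7 members were called beside 24.6% of all genes: Prim1 and Rrm2 higher, and Mcm2, Mcm5, Rfc2, Dbf4 and Rpa2 lower. In light polysomes 2 of 43 members were called, both lower, beside 10.6%: Dbf4 (-0.94, SE 0.18) and Mcm2 (-0.80, SE 0.19, edgeR adjusted p 0.00851). Mcm2 lost its call in 7 of the 12 fits that left out 1 gradient, among them the one without LPS+ET LUL16 (-0.74, adjusted p 0.0220), and Dbf4 in 2, without LPS LUL15 or LPS+ET LUL17 (adjusted p 0.0112 and 0.0109). The block called 4 there beside 25%, adding Rrm2 higher and Rpa3 lower. In heavy polysomes 0 of 43 members were called beside 9.69%, with 8 at an unadjusted p under 0.05 beside 31.8% of all genes, and 1 called by DESeq2 beside 15.3%. The block called 5 beside 20.6%: Orc5 and Rrm2 higher, and Dbf4, Rfc2 and Pold2 lower. Rrm2 was thus called higher in each of the 3 classes with the block, at log2 fold changes of 0.98 in monosomes, 0.81 in light and 0.65 in heavy polysomes. Without LPS+ET LUL16, the block no longer called Mcm2 and Mcm5 in monosomes, Rpa3 in light or Orc5 in heavy polysomes, and called Rfc3 higher in heavy polysomes.

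With the inhibitor added to etoposide, edgeR called 0 members in any class, and DESeq2 gave 0 in each class too. The background was 0.213% in monosomes, 0.292% in light and 0.572% in heavy polysomes. At an unadjusted p under 0.05 there were 3, 1 and 7 members, beside 13.5%, 15.3% and 14.9% of all genes. The block called 2 of 44 in monosomes beside 5.62% of all genes (Rrm2 lower and Rfc2 higher), 0 of 43 in light polysomes beside 5.35%, and 2 of 43 in heavy polysomes beside 3.27% (Fen1 and Rrm2, both lower). Without LPS+ET LUL16 it called Rrm2 alone in monosomes, Rrm2 in light polysomes and Gins1, Fen1 and Rrm2 in heavy polysomes, each lower. In heavy polysomes, 38 of 43 members lay below 0 with a median log2 fold change of -0.29, and 7 of the members changed sign on plain CPM. In light polysomes and monosomes the medians were -0.05 and -0.05, and on plain CPM they turned to 0.02 and 0.03.

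Between LPS+ET+KU and LPS, the called members of each class were lower. In monosomes they were Tyms, thymidylate synthase (-1.37, SE 0.30), and Dbf4 (-1.14, SE 0.24), 2 of 44 beside 5.96% of all genes. In light polysomes they were Dbf4 (-1.03, SE 0.18) and Gins1 (-0.81, SE 0.18), 2 of 43 beside 7.13%. In heavy polysomes Prim2 (-1.05, SE 0.21) was the 1 of 43, beside 7.95%. The block called 9 in monosomes (Prim1 higher and 8 lower) beside 23.2%, 6 in light polysomes beside 24.1% and 8 in heavy polysomes beside 21.4%, all of these 6 and 8 lower. These values share their gradients with the other comparisons of each class.

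Most replication mRNAs sat deep in the gradient. In LPS, 28 of the 44 members tested differed between heavy polysomes and monosomes, beside 51.4% of 11034 genes. Of these, 24 were higher in heavy polysomes, beside 28.5% of all genes, and 4 were lower. The median log2 difference was 0.83 for the members and 0.11 for all genes. The values are relative to the bulk of mRNAs in each class, as TMM scaling sets them. On plain CPM the median of all genes was 0.58 and that of the members 1.35, and 4 members changed sign. All 6 MCM2-7 mRNAs were higher in heavy polysomes, from 0.93 to 1.94, and so were both Okazaki fragment enzymes and 5 of 9 polymerase and primase members. Fen1 led at 2.36 (SE 0.22), followed by Rrm1 at 2.29 (SE 0.21) and Pola1 at 2.199 (SE 0.21).

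The heat map of fractions shows where each mRNA sedimented. Of the 43 members with a mean of 100 counts or more, 26 peaked in fractions 13 to 15 in LPS, with 7, 11 and 8 in each. Pola1, with a coding sequence of 4395 bases, peaked in fraction 15, where 39.2% of its summed CPM lay. Fen1, at 1140 coding bases, peaked earlier, with 21.4% in fraction 13 and 21.4% in fraction 14. As a share of a gene's own counts, heavy polysomes held 88.7% ± 4.1 (SD, n = 4) of Pola1, 86.7% ± 5.6 of Rrm1, the large subunit of ribonucleotide reductase, and 85.5% ± 2.3 of Fen1 in LPS.

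At the other end stood 3 members. Heavy polysomes held 36.3% ± 14.2 (SD, n = 4) of Rpa3 counts, 41.7% ± 7.1 of Dbf4 and 51.7% ± 2.2 of Cdc7. Both subunits of the origin-firing kinase were thus called lower in heavy polysomes than in monosomes, Dbf4 by -0.91 (SE 0.14) and Cdc7 by -1.04 (SE 0.24). Rpa3, with the shortest coding sequence among the members at 363 bases, peaked in fraction 10 with 20.8% of its summed CPM and had a difference of -0.88 (SE 0.25), which was lost without the LPS gradient of tag LUL16 (-0.61, edgeR adjusted p 0.0811) or LUL17 (-0.73, adjusted p 0.0363). Dbf4, at 1989 coding bases, peaked in fraction 9 with 14.4%. Cdc7, at 1692 bases, was spread, with 12.2% in fraction 4 and 9.27% in fraction 12. Without the gradient term, Cdc7 (edgeR adjusted p 0.0368) and Rpa3 (adjusted p 0.0240) were not called. The other lower member was Cdt1, whose few counts were read mainly at an intronic site.

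**Figure D3:**
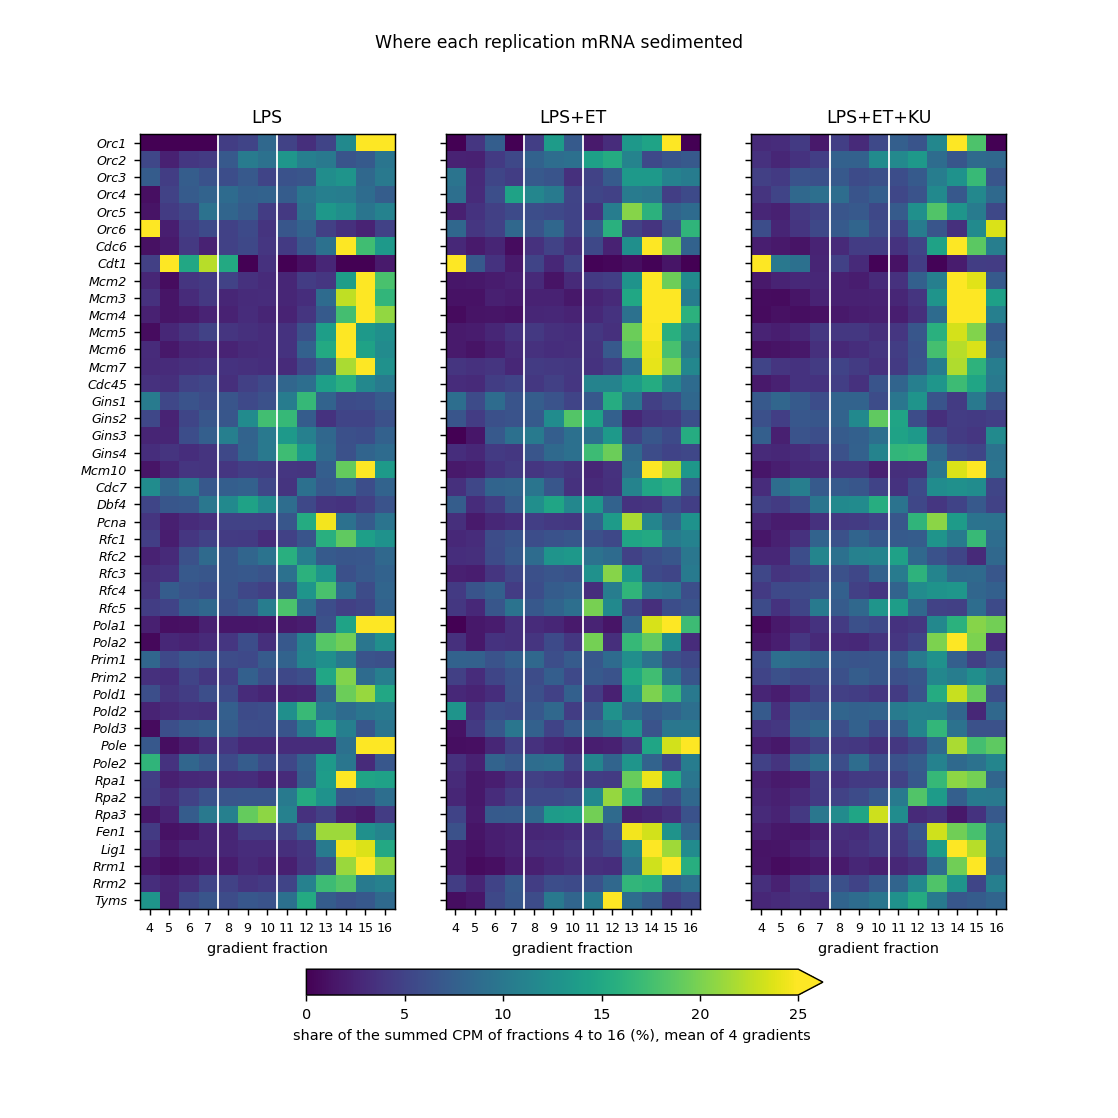
Share of each gene's summed CPM (colour, percent, mean of 4 gradients) in gradient fractions 4 to 16 (x axis) for the 45 members in order of role (y axis), in 3 panels by treatment. White lines part monosomes, light and heavy polysomes. Most rows are brightest in fractions 13 to 15, while in LPS Dbf4 is brightest at fraction 9 and Rpa3 at fraction 10. The colour scale ends at 25%, and larger shares have its last colour.

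Light polysomes against monosomes in LPS gave 5 calls among 44 members, beside 24.6% of all genes. Orc2, Gins2 and Gins4 were higher, and Rfc4 and Cdt1 lower. The number ran from 1 to 13 when 1 gradient was left out, with 13 without LPS+ET LUL16, 1 without LPS LUL16 or LPS LUL17, and 2 without LPS LUL15 or LPS LUL18. Without the gradient term, 0 were called by edgeR, and 20 of 44 had an unadjusted p under 0.05 with it, beside 43.9% of all genes. On plain CPM 18 members changed sign here, so no direction is drawn for the group.

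Longer coding sequences can carry more ribosomes, so the members were set against their coding length, taken from GENCODE M21. The 14 members with over 2000 coding bases had a median heavy-to-monosome log2 difference of 1.201, with 12 called higher and 0 lower (edgeR). The 21 members of 1000 to 2000 bases had a median of 0.25 with 9 higher and 3 lower, and the 9 members of up to 1000 bases a median of 0.31 with 3 higher and 1 lower. Among all genes the medians of the same classes were 0.46, 0.19 and -0.13 from long to short. The shares of all genes called higher were 39.04%, 30.09% and 22.14% in the same order. Across the 44 members, coding length and the difference had a Pearson r of 0.31 and a Spearman rho of 0.46, and across 10171 genes 0.27 and 0.24. These describe genes within the same libraries, which are not independent replicates. Pcna, the sliding clamp, was high at 1.66 with a coding sequence of 783 bases.

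**Figure D4:**
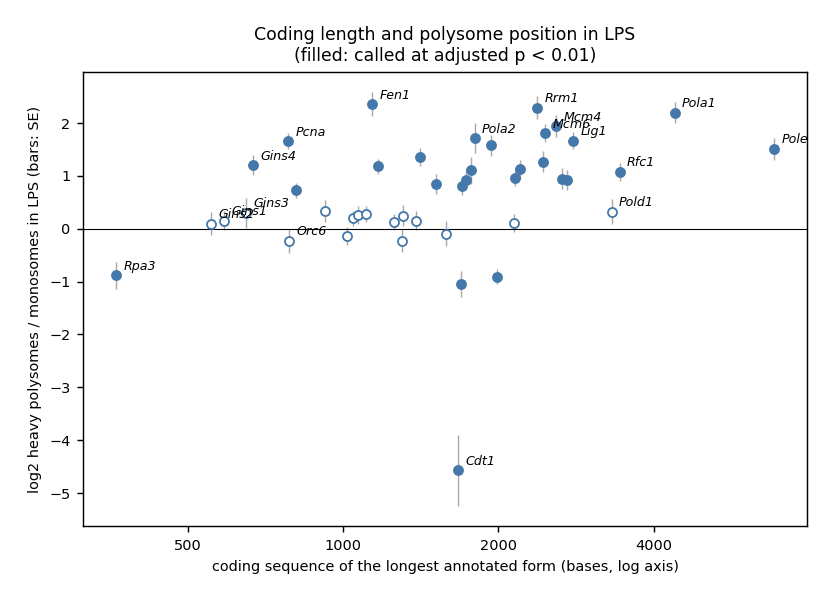
Heavy-to-monosome log2 difference in LPS (y axis) against coding length in bases (x axis, log scale) for the 44 members tested. Each point is a gene with its SE as a bar, filled where called by edgeR. The members with over 2000 coding bases lie above 0, with a median of 1.201, and the shorter ones are spread on both sides.

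The replication mRNAs were also mostly on the heavy side in both etoposide groups. In LPS+ET, 28 of 44 were called, 27 of them higher in heavy polysomes, beside 49.6% of all genes called and 26.9% called higher. The median was 0.95. In LPS+ET+KU, 31 were called, 26 higher and 5 lower, beside 54.4% called and 29% called higher, with a median of 0.78. Without the gradient term there were 23 calls in LPS, 24 after etoposide and 19 with the inhibitor as well. For that fit the share of all genes called is not given, so these counts are not read as a result about the members. Without the gradient LPS+ET LUL16, the log2 difference of Pold1, the catalytic subunit of polymerase delta, went from 1.03 to 0.28 in LPS+ET, and Pold1, Orc3, Prim2 and Rfc1 were no longer called.

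Whether an mRNA moved between monosomes and heavy polysomes with etoposide was tested as the change in the heavy-to-monosome ratio. Between LPS+ET and LPS, 4 of 44 members changed, beside 5.10% of all genes. Mcm2, Rpa2 and Rfc3 moved towards heavy polysomes, and Pold2 moved towards monosomes. The members' median was 0.23 and that of all genes 0.01.

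Mcm2, a subunit of the replicative helicase, had 167, 135, 109 and 111 CPM in LPS monosomes and 89.97, 82.9, 86.6 and 73.0 CPM in LPS+ET monosomes. Its heavy polysome level was 370, 261, 485 and 359 CPM in LPS and 616, 917, 412 and 428 CPM in LPS+ET. The log2 ratio was 1.15, 0.95, 2.15 and 1.69 in LPS and 2.78, 3.47, 2.25 and 2.55 in LPS+ET, so the groups did not overlap. The change was 1.25 with SE 0.27 and an edgeR adjusted p of 0.00205, which rose to 0.0119 without LPS LUL15 and 0.0166 without LPS LUL16. Without LPS+ET LUL16, which had the highest ratio, it was 0.95 with SE 0.22 and an adjusted p of 0.00334 (edgeR).

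Pold2 moved the other way. Its log2 ratio was 1.80, 1.95, 2.31 and 1.74 in LPS, 0.76, 0.15, 0.71 and 1.27 in LPS+ET, and 1.04, 0.73, 0.63 and 0.52 in LPS+ET+KU. Both etoposide groups lay below every LPS gradient. The change between LPS+ET and LPS was -1.28 with SE 0.25 and an edgeR adjusted p of 0.00054, and it passed in every fit that left out 1 gradient. In heavy polysomes Pold2 went from 62.7, 62.4, 38.4 and 41.9 CPM to 47.0, 33.4, 25.7 and 28.6 CPM.

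Rpa2 had log2 ratios of 1.14, 1.24, 1.24 and 1.48 in LPS and 2.65, 1.71, 2.65 and 2.25 in LPS+ET, a change of 0.98 with SE 0.21 and an edgeR adjusted p of 0.00181. Its monosome level was 200, 192, 160 and 162 CPM in LPS and 97.6, 68.4, 101 and 122 CPM in LPS+ET. Rfc3, a clamp loader subunit, had ratios of 0.87, 0.87, 0.48 and 0.97 and then 2.56, 1.35, 2.17 and 1.498, a change of 1.01 with SE 0.25 and an edgeR adjusted p of 0.00656. That call was lost in 6 of the 12 fits that left out 1 gradient, with adjusted p up to 0.0398 (edgeR). None of the 4 members passed without the gradient term, where the edgeR adjusted p was 0.0399 for Mcm2, 0.112 for Rpa2, 0.14 for Rfc3 and 0.088 for Pold2.

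**Figure D5:**
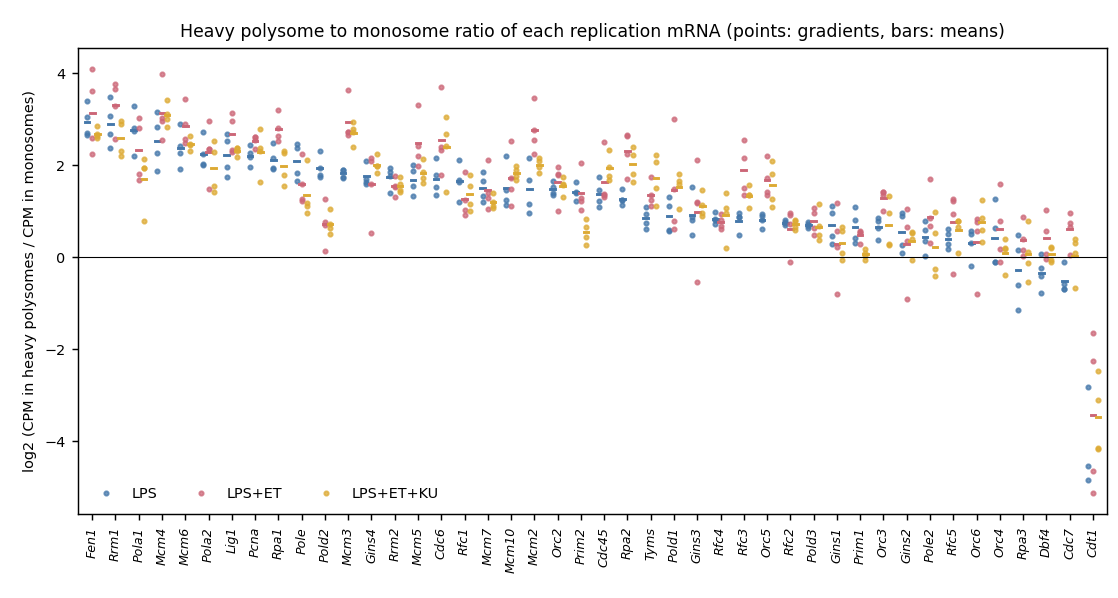
Log2 ratio of heavy polysome to monosome CPM (y axis) for the members (x axis), with a point for each gradient and a bar for the mean of 4, coloured by treatment. Members are in order of the TMM-scaled edgeR difference in LPS, which is not the mean of the plotted ratios. Cdt1 in LPS of tag LUL15 had 0 counts in heavy polysomes, so that point and the LPS mean of Cdt1 are not drawn. Mcm2, Rpa2 and Rfc3 are higher in LPS+ET than in LPS, and Pold2 is lower in both etoposide groups.

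With the inhibitor, 0 of 44 members changed their heavy-to-monosome ratio against LPS+ET in edgeR, beside 0.181% of all genes. At an unadjusted p under 0.05 there were 11 of the 44, beside 12.9% of all genes. Of the members, 37 lay below 0 with a median of -0.31, beside -0.05 for all genes. All 6 MCM2-7 members were below 0, also on plain CPM, and all 9 polymerase and primase members were, of which Pold1 and Pold2 changed sign on plain CPM. Mcm2 was at 2.16, 2.10, 1.83 and 1.97 in LPS+ET+KU, between its LPS+ET values and most of its LPS values, and the change of -0.85 (SE 0.27) had an edgeR adjusted p of 0.121.

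The study's own measure of distribution is RiboLoad, the heavy polysome share of a gene's counts. In limma on its log2 odds, 0 of 43 members changed in either comparison, as did 0.0% and 0.0% of 8000 genes, with 1 and 4 members at an unadjusted p under 0.05 beside 2.21% and 3.15% of all genes. That share carries each gradient's own split of counts between classes. With the gradient's median over genes subtracted, 0 members were called, beside 0.463% and 0.0% of all genes, and 8 and 5 had an unadjusted p under 0.05, beside 16.7% and 15.1%. The members' medians were then 0.15 for LPS+ET against LPS and -0.29 for LPS+ET+KU against LPS+ET.

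Genes around the replication machinery were read in the same fits, in lists drawn up with earlier results of these data known. After etoposide, 12.7% of all genes were called over fractions 4 to 16, and 26.7% with the block. In the list of 31 other fork and origin factors, 1 fell after etoposide, Mms22l (-1.03, SE 0.19), and the median was -0.15. Of 29 genes for nucleotide supply, Impdh1, the first enzyme of guanine nucleotide synthesis from IMP, rose (0.80, SE 0.15), while Dhodh of pyrimidine synthesis (-0.96, SE 0.19) and the dCMP deaminase Dctd (-1.26, SE 0.28) fell. Of 19 tested genes of E2F, Rb and the S phase cyclins, Rbl2, an Rb family member, rose (1.22, SE 0.26) and Fbxo5, an inhibitor of the anaphase-promoting complex, fell (-0.999, SE 0.23). None of 12 chromatin assembly genes was called by edgeR, with a median of -0.14, and the block called 1, lower. In the other 3 lists, in order, the block called 1 higher and 4 lower, 2 higher and 6 lower, and 2 higher and 5 lower. With the inhibitor, against LPS+ET, 24 of 31, 22 of 29, 11 of 19 and 9 of 12 genes of these lists lay below 0, in the order named. Their medians were -0.28, -0.30, -0.12 and -0.19, beside 0.04 for all genes.

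Larger fold changes were seen in the last 2 lists, which were also chosen with earlier results known. Beside their calls after etoposide stand 12.7% of all genes, and 26.7% with the block. Of 22 G2 and M phase genes, 11 fell after etoposide and all 22 lay below 0, with a median of -1.04, among them Plk1 (-2.39, SE 0.32) and Ube2c (-1.97, SE 0.22). The block called 14 of them, all lower. All 15 genes in a list of p53 targets rose, also with the block, with a median of 2.67, led by Phlda3 (5.29, SE 0.31) and the cell cycle inhibitor Cdkn1a (4.64, SE 0.29). With the inhibitor, 22 of 22 G2 and M phase genes and 14 of 15 p53 targets lay below their LPS+ET level, with medians of -0.48 and -0.58, and edgeR called 0 in each list while the block called 3 and 5. Of all genes, 0.455% were called in that comparison, and 6.36% with the block. Against the heavy-to-monosome split in LPS, 20 of the 22 G2 and M phase genes were higher in heavy polysomes, 15 of 29 other fork factors and 18 of 29 nucleotide genes were, and 1 of 15 p53 targets was. Among all genes, 28.5% were called higher there. E2f1, the E2F activator, was lower in heavy polysomes (-3.03) and its ratio rose after etoposide (1.27, SE 0.24, edgeR adjusted p 0.00039), as did that of Topbp1, which acts in origin firing and in checkpoint signalling (1.00, SE 0.22, adjusted p 0.0025).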

How the data were processed

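Ribosome-associated mRNA of 12 sucrose gradients, 4 for each of 3 treatments, was read in 157 libraries, of which 156 were fractions 4 to 16 and 1 was a fraction 17 with 777 counts (1 of a member). Barcoded 3′ end libraries were made by the authors, with random bases in the reverse transcription primer so that PCR duplicates could be removed, and the reads were aligned to GRCm38 (mm10). The submitters' processing notes name TopHat2 2.0.12, HTSeq and DESeq2 1.6.3. The deposited values are whole-number counts per Ensembl gene, which the authors had not normalized. A fraction library held 14724 to 4170688 counts (median 811932). By their names, 79 columns matched 1 sample each and 78 (tags LUL16 and LUL18) only a treatment and fraction.

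Counts were summed per gradient and per class, and tested with edgeR 4.0.16 in R 4.3.3 (quasi-likelihood, TMM scaling, filterByExpr) over all genes, with a Benjamini-Hochberg adjusted p below 0.01 as a call. Class against class, and changes in that ratio, were fitted over 36 class sums with a term for the gradient. CPM is the deposited count scaled to a library total of 1000000, with no TMM factor. RiboLoad was tested with limma 3.58.1 on the log2 odds of the heavy share, with 0.5 added and a mean of 100 counts or more. Alternatives were DESeq2 1.42.0 and its size factors, no filter, a threshold of 0.05, the 8 gradients compared, equal weight per fraction (limma on log2(CPM + 1)), the tag as a block, and leaving out each gradient. The RiboLoad fit with the gradient median subtracted, and the block fit with the LPS+ET gradient of tag LUL16 left out, were chosen after seeing the data. The fits were tested on simulated data.

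The pairing by tag comes from the column names, and no statement that a tag marks a shared animal or day was used. Deviations from the treatment means, across genes, correlated at 0.306 to 0.799 (median 0.583) in the 12 pairs of gradients that share a tag and at -0.631 to 0.286 in the 36 others. The study's methods speak of 4 biological replicates without saying what set them apart. In treatment fits without a block, p-values measure the spread between these gradients. With the tag as a block they measure the spread left after differences between tags. In class fits with a gradient term they measure the spread left after differences between gradients. Members and gene lists were chosen with earlier results of these data known. By rule, the text gives levels of up to 8 members called in LPS+ET against LPS over fractions 4 to 16, any called in LPS+ET+KU against LPS+ET, and the member with the most counts in each role, and prints promoter sequence for those alone. For the distribution it names the 3 highest and 3 lowest heavy shares in LPS and members called for the ratio or RiboLoad, and for each other gene list up to 3 called genes by adjusted p. All other members named, and the levels of Fen1, were chosen after their values were seen. Figures used matplotlib 3.10.9. The authors' own comparisons were not used.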

Additional observations from a re-analysis of the deposited data

Results flagged for a closer look

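Among 135 sets of 4 gradients, 11 held a gradient whose CPM lay far from the other 3, where chance gives about 1 in 20. In LPS+ET of tag LUL16, Orc6 was at 10.1 CPM beside 14.9 to 15.9, Gins1 at 32.8 beside 52.5 to 56.0, and Rpa2 at 140.0 beside 433 to 492. In LPS+ET of tag LUL15, Mcm4 was at 161 CPM beside 103 to 106, and Pold3 at 37.3 beside 21.1 to 23.6. In LPS+ET+KU of tag LUL16, Gins1 was at 43.3 CPM beside 33.5 to 33.99, Cdc7 at 26.3 beside 9.76 to 11.8, and Pold1 at 62.3 beside 17.0 to 22.4. Prim2 was at 15.6 CPM in LPS+ET+KU of tag LUL18 beside 21.9 to 22.6. In LPS of tag LUL17, Cdt1 was at 1.52 CPM beside 0.435 to 0.611, and Tyms at 10.8 beside 15.8 to 16.1.

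The difference between heavy polysomes and monosomes itself differed between LPS+ET and LPS for 4 members in edgeR's test of that change, by 1.25 for Mcm2, 1.01 for Rfc3, 0.98 for Rpa2 and -1.28 for Pold2 on the log2 scale.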

How the results depend on the processing

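Of the member counts under all alternatives, 242 stayed within 1.5 times of the value given and 62 did not. The counts below show how the fits differ. Where no share of all genes stands beside a count here or above, it is not read as a result about the members. With a threshold of 0.05, members called went to 3 for LPS+ET against LPS over fractions 4 to 16, 12 for LPS+ET+KU against LPS, 1 for LPS+ET+KU against LPS+ET, 2 in heavy polysomes, 4 in light polysomes and 6 in monosomes for LPS+ET against LPS, 7 for the ratio and 15 for light polysomes against monosomes. The replicate block by tag gave 5, 16 and 2 over fractions 4 to 16, then 5, 4 and 7 in heavy, light and monosomal fractions after etoposide, and 2 in heavy polysomes and 2 in monosomes with the inhibitor. With LPS+ET LUL16 left out of that block fit, these counts were 4, 16 and 7, then 5, 3 and 5, and 3 in heavy polysomes, 1 in light polysomes and 1 in monosomes. No replicate block in the class fits gave 0 for the ratio, 0 for light polysomes against monosomes and 19 for heavy polysomes against monosomes in LPS+ET+KU. DESeq2 gave 10, 1, 1 and 5 members for LPS+ET+KU against LPS, LPS+ET+KU against LPS+ET, and heavy polysomes and monosomes after etoposide. Equal weight per fraction gave 0 for LPS+ET against LPS and 2 for LPS+ET+KU against LPS. In monosomes, DESeq2 size factors, no filter and only the 8 gradients gave 2 each, and in light polysomes no filter gave 1. Leaving out 1 gradient gave 0 to 1 for LPS+ET against LPS, 1 to 8 for LPS+ET+KU against LPS, 0 to 1 for LPS+ET+KU against LPS+ET, 0 to 1 in heavy, 0 to 2 in light and 1 to 3 in monosomal fractions, 2 to 4 for the ratio and 1 to 13 for light polysomes against monosomes. Without LPS+ET LUL17 or LPS LUL15, 0 members were called in light polysomes, and without LPS+ET+KU LUL16 there were 3 in monosomes.

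Single log2 fold changes near 0 changed sign. For LPS+ET against LPS, Mcm10 was at 0.17 with equal weight, 0.013 with only the 8 gradients and -0.082 to 0.080 leaving out 1 gradient, Orc2 was at -0.036 to 0.391 leaving out 1, with the negative value without LPS+ET LUL17, and Rpa2 was at -0.12 with equal weight, -0.0073 without a filter, -0.037 with the block and -0.14 to 0.294 leaving out 1. For LPS+ET+KU against LPS+ET, Dbf4 was at 0.020 without a filter, 0.00079 with the block and -0.085 to 0.10 leaving out 1, and Lig1 at -0.608 to 0.010 leaving out 1. With equal weight in that comparison, Mcm10 was at 0.071, Orc2 at 0.022 and Rpa2 at 0.044. The cause was not tested. Depth limits Orc1 and Cdt1 most, with at most 24 and 53 counts per gradient.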
